A study of Danio rerio with 12 samples.

Results

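Whole zebrafish larvae that lacked a functional mda5 gene were compared with wildtype (WT) larvae by RNA-seq. The 6 libraries compared, 3 from mda5 mutants and 3 from WT, were chosen by the genotype on their labels out of 12 libraries of the same age. The table lists 32271 features, of which 21623 averaged 0.5 FPKM or more across these 12 libraries and were tested. FPKM, the number of sequenced fragments scaled by transcript length and by library size, is the unit of all levels given. Differences are given on the scale of log2(FPKM + 0.5), which understates the change of genes with low values.

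All larvae were 3 weeks old, of the AB background, and were pooled in groups of 10 per library. The mda5 mutants were homozygous for mk29, a CRISPR allele with 7 bases deleted from ifih1, the gene that encodes Mda5. They carried a normal zbtb24 gene, as did WT larvae. The remaining 6 libraries came from larvae homozygous for the zbtb24 deletion allele mk22, with the normal mda5 gene (zbtb24 mutants) or with mk29 (double mutants). No infection or treatment is described for any of them. A pool averages 10 larvae and all their tissues, mk29 is a single allele made with 1 guide, and the spread between pools is the only replication.

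Mda5 is an RNA helicase of the cytosol that senses long double-stranded RNA, a product of many viruses. With RIG-I it forms the pair of RNA helicases that signal through the adaptor Mavs at the mitochondrial surface, where the kinase Tbk1 and the transcription factors Irf3 and Irf7 turn on interferons. Interferons then act through receptors, Janus kinases and Stat proteins to induce a broad set of antiviral genes. The comparison of mda5 mutants with WT asks what the absence of the sensor did in larvae that had no challenge and an intact zbtb24 gene.

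The sequences below were used to make and to genotype mk29, and they do not give the deleted bases. They are the part of the guide RNA that pairs with ifih1 and the genotyping primers. All are written 5′ to 3′ and taken from the oligonucleotide and allele tables of the study. Capitals in the guide mark the 12 bases at its 3′ end, the stretch next to the PAM where pairing matters most for cutting.
mda5 guide spacer: ggtgataaACACTGCGACCC
mk29 forward primer: gctcactggaggatcaccat
mk29 reverse primer: accaccttgttgaccaggac

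In the deposited table the 12 libraries had 18712 to 19344 features at 1 FPKM or more. The read depth of each library is unknown, because FPKM values carry no counts and the study gives only an average per sample. The 4 features with the highest values (ENSDARG00000081938, ENSDARG00000080401, ENSDARG00000080128 and ENSDARG00000081369, none with a symbol) took 84.2% to 89.9% of the summed FPKM of the 6 compared libraries. Each of the 4 was lower in all 3 mda5 mutant libraries than in all 3 WT libraries, with log2 differences of -0.67, -0.74, -0.73 and -0.55. Medians over features were alike, at 2.41 to 2.43 on the log2 scale in the 6 libraries. The sums were not alike, as summed FPKM was 1.03e+07 to 1.22e+07 in WT and 5.81e+06 to 7.56e+06 in mda5 mutants. Without the 4 features it was 1.15e+06 to 1.62e+06 in WT and 8.29e+05 to 9.56e+05 in mda5 mutants. Levels of abundant genes thus depend on the scaling, and medians of lists under quantile normalization are given for some lists below. One label field names fin as the source, whereas the design describes whole larvae. fabp10a, a fatty acid binding protein made by hepatocytes, stood at 903 to 2295 FPKM in the 6 libraries, and transcripts of lens, retina, pancreas and brain were present in all of them. CDCA7, which falls when Zbtb24 is absent in mammals, stood at 2.53 to 3.48 FPKM in the 6 compared libraries and at 0.0118 to 0.101 FPKM in the 6 that carry mk22. ZBTB24 itself stood at 0.348 to 0.587 FPKM in the compared libraries and at 1.06 to 1.74 FPKM in those with mk22, and a gene total does not show which part of the gene was read, so it was not used as a check.

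Transcripts of ifih1 were at low levels throughout. WT libraries had 0.751, 0.732 and 0.820 FPKM and mda5 mutant libraries had 0.354, 0.613 and 0.493 FPKM. All 3 mutant libraries lay below all 3 WT libraries. The difference was -0.37 ± 0.15 (SE, n = 3 per group) with an adjusted p of 0.348 in limma. Beside it, zbtb24 mutants had 1.35, 1.87 and 1.54 FPKM and double mutants 0.573, 0.559 and 0.381 FPKM, a difference of -1.05 ± 0.15 with an adjusted p of 0.109. A deletion of 7 bases leaves nearly the whole transcript to be counted, so the level of ifih1 is a weak check of the genotype.

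Of 21623 features, 1 was called at an adjusted p under 0.05 (limma with Benjamini-Hochberg adjustment over all features, which is 0.00462% of those tested), and it was lower in mda5 mutants. ENSDARG00000082123, a feature with no symbol in the annotation used, had 7795, 3430 and 6814 FPKM in WT and was listed at 0 in all 3 mda5 mutant libraries, with an adjusted p of 3.47e-10. It also had 2663, 2668 and 2459 FPKM in zbtb24 mutants and was listed at 0 in all 3 double mutant libraries. All 6 libraries with mk29 were thus at 0 and all 6 without it were at 2459 FPKM or above. An exact 0 in such a table can be a failed estimate, so no fold is given. The second smallest adjusted p in the comparison was 0.228.

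No other gene passed the test, and the adjusted p-values given below are from the same limma fit. A gene is described as higher or lower by the test where its unadjusted p was under 0.05, a threshold that 13.6% of all features passed. At an unadjusted p under 0.05, 1362 features were higher (6.3%) and 1572 were lower (7.27%) in mda5 mutants. The 3 mutant libraries lay wholly above the 3 WT libraries for 1665 features (7.7%) and wholly below them for 2723 (12.6%). An exact permutation test of 3 against 3 libraries cannot give a p under 0.1, so a gene whose groups do not overlap reaches at best that value on its own. In 349 features the difference was at least 1 on the log2 scale in either direction, and the median over all features was -0.02.

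The pathway in which Mda5 acts showed levels in mda5 mutants close to those of WT. Of 25 tested members of the RIG-I-like receptor pathway, 0 were higher and 2 lower at an unadjusted p under 0.05, ifih1 and NLRX1, with a median difference of -0.04. Wholly below WT lay 4 members, ifih1, NLRX1, PPM1B and TRAF6, and wholly above it 1, nfkb1. Over all features 6.3% were higher and 7.27% lower at that threshold, and 7.7% lay wholly above WT and 12.6% wholly below. The counts of this list were not far from these shares. NLRX1, a mitochondrial protein that restrains Mavs in mammals, had 4.40, 5.01 and 5.10 FPKM in WT and 3.88, 3.91 and 4.01 FPKM in mda5 mutants, without overlap (-0.27 ± 0.10, adjusted p = 0.336). The adaptor mavs had 9.33, 8.51 and 9.505 FPKM against 8.92, 7.36 and 9.94 FPKM, and the groups overlapped (-0.07 ± 0.15). DHX58, the third helicase of the family, which lacks the signaling domains, had 2.51, 2.39 and 1.96 FPKM against 2.06, 3.01 and 3.24 FPKM (0.22 ± 0.30). TBK1, irf3 and IRF7 overlapped as well, with differences of 0.13 ± 0.12, 0.21 ± 0.23 and -0.01 ± 0.23. The subunit nfkb1 of the inflammatory factor NF-κB stood at 4.02, 3.70 and 2.83 FPKM against 4.14, 4.27 and 4.25 FPKM, without overlap (0.24 ± 0.12, adjusted p = 0.39).

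**Figure D1:**
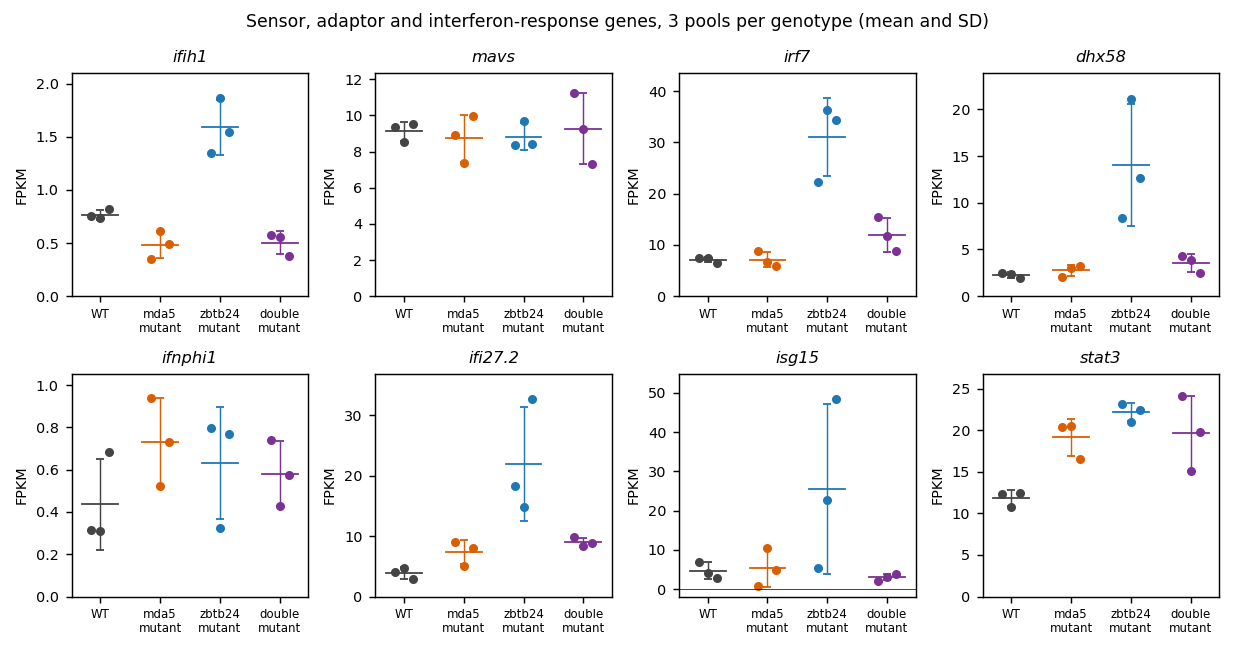
FPKM of ifih1 and of genes of the RIG-I-like receptor and interferon pathways in each pool, by genotype, with the mean (line) and SD (bars) of 3 pools. WT and mda5 mutant pools lie side by side for mavs, DHX58, IRF7 and isg15, while all 3 mda5 mutant pools lie below WT for ifih1.

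Interferon-stimulated genes lay close to WT by their median. Among 60 tested members, 3 were higher and 3 lower at an unadjusted p under 0.05. Without regard to the test, 38 differed upward and 22 downward, and 10 lay wholly above WT and 6 wholly below. Over all features 7.7% lay wholly above WT and 12.6% wholly below. The list thus held a larger share wholly above WT, and a smaller share wholly below, than all features did. The median difference was 0.10, between 0.06 and 0.15 when 1 library was left out, and the mean of the list relative to WT was 0.01, 0.11 and 0.17 in the 3 mutant libraries against 0.00, 0.04 and -0.05 in WT. isg15, an antiviral ubiquitin-like protein, ranged from 2.71 to 7.01 FPKM in WT and from 0.797 to 10.5 FPKM in mda5 mutants. RSAD2, the antiviral enzyme viperin, ranged from 0.922 to 4.22 FPKM in WT and from 0.619 to 4.59 FPKM in mda5 mutants. The spread between pools of 1 genotype therefore exceeded the difference between genotypes for these strongly inducible genes. The standard errors were 0.83 for isg15 and 0.73 for RSAD2, and only changes several times as large could have been called here.

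The 3 interferon-stimulated genes on the higher side were ifi27.2, mxc and adar. ifi27.2 had 4.05, 4.79 and 2.85 FPKM in WT and 8.98, 5.04 and 8.06 FPKM in mda5 mutants (0.83 ± 0.29, adjusted p = 0.332). mxc, of the Mx family of antiviral GTPases, had 3.36, 1.86 and 2.56 FPKM against 5.10, 3.41 and 4.22 FPKM (0.63 ± 0.25, adjusted p = 0.346). adar, which edits double-stranded RNA and so keeps it from being sensed by Mda5 in mammals, had 5.57, 6.84 and 5.21 FPKM against 7.19, 7.43 and 6.86 FPKM (0.27 ± 0.11, adjusted p = 0.348). In all 3 genes every mutant library lay above every WT library. On the lower side were SAMHD1, a nucleotide hydrolase that limits viruses (-0.57 ± 0.21), apol1 (-0.34 ± 0.15) and ifih1 itself. Without 1 library at a time, 0 to 2 members were higher and 1 to 5 lower.

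Interferons and their signaling components were likewise close to WT apart from STAT3. Of 19 tested members, 1 was higher and 1 lower, and the median was 0.08. STAT3, a transcription factor downstream of interleukin-6 family cytokines, had 12.3, 10.8 and 12.5 FPKM in WT and 20.3, 20.5 and 16.5 FPKM in mda5 mutants, without overlap (0.66 ± 0.16, adjusted p = 0.284). Zbtb24 mutants had 23.2, 21.0 and 22.4 FPKM of STAT3 and double mutants 24.1, 15.1 and 19.7 FPKM, so the 3 WT pools were the lowest of the 12 libraries. The interferon gene ifnphi1 was at 0.310 to 0.685 FPKM in WT and 0.522 to 0.940 FPKM in mda5 mutants, and the groups overlapped (0.41 ± 0.23, adjusted p = 0.435). The receptor il10ra was lower (-0.32 ± 0.14, adjusted p = 0.359).

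MHC class I antigen presentation showed 0 of 28 members higher and 1 lower, with a median of 0.08. mhc1zea, a class I heavy chain, had 5.63, 5.40 and 6.76 FPKM against 5.02, 4.45 and 5.26 FPKM (-0.25 ± 0.10, adjusted p = 0.35). TAP1, the peptide transporter, and mhc1zaa were above WT in all 3 mutant libraries without reaching an unadjusted p of 0.05 (0.37 ± 0.24 and 0.48 ± 0.29). Also wholly above WT were tap2a and one of 2 features named ERAP1 (ENSDARG00000021859). Without regard to the test, 19 members differed upward and 9 downward, and 4 lay wholly above WT and 1, mhc1zea, wholly below. Over all features 7.7% lay wholly above WT and 12.6% wholly below. By these counts the list leaned upward, although 0 members were higher by the test.

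Among other innate sensors and inflammatory genes, the members that differed by the test were lower. Of 22 tested sensors and adaptors, 0 were higher and 4 lower, with a median of -0.01. Of 36 inflammatory cytokine and acute phase genes, 0 were higher and 4 lower, with a median of -0.18. Over all features 6.3% were higher and 7.27% lower at that threshold. The lower shares of both lists were above that, but rest on 4 members each. Above WT but not past the test were 10 of the sensors and 12 of the inflammatory genes. tlr5b, a receptor for bacterial flagellin, had 4.15, 3.40 and 4.31 FPKM in WT and 2.77, 2.98 and 2.98 FPKM in mda5 mutants (-0.38 ± 0.12, adjusted p = 0.32). PGLYRP2, which cleaves bacterial peptidoglycan, had 2.28, 2.64 and 4.27 FPKM against 1.55, 1.36 and 2.27 FPKM (-0.66 ± 0.21, adjusted p = 0.326). The inflammasome caspase caspa (-0.40 ± 0.14) and the Toll-like receptor adaptor ticam1 (-0.29 ± 0.12) were also below WT in every mutant library. cxcl8a, a chemokine that attracts neutrophils, had 7.50, 6.43 and 9.57 FPKM against 4.03, 5.07 and 4.84 FPKM (-0.68 ± 0.24, adjusted p = 0.333). crp3, an acute phase protein, ranged from 41.8 to 93.3 FPKM in WT and from 7.37 to 50.8 FPKM in mutants, and the groups overlapped (-1.74 ± 0.59, adjusted p = 0.326). nfkbiaa, the inhibitor that NF-κB induces, and cxcl8b.1 were lower by the test (-0.36 ± 0.14 and -0.68 ± 0.27), also with overlap. Leaving out 1 library at a time gave 1 to 6 lower inflammatory members.

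Across the 30 gene lists described here, the members that differed most often were those of the circadian clock, retina, skin, liver and skeletal muscle rather than those of antiviral defence. These lists hold tissue genes from pools of whole larvae, where fewer cells of a type and less RNA per cell cannot be told apart. The counts of each list below stand beside the shares of all features. These were 6.3% higher and 7.27% lower at an unadjusted p under 0.05, and 7.7% wholly above WT and 12.6% wholly below. The lowest list medians were the -0.50 of liver secreted proteins, the -0.46 of collagen and bone matrix and the -0.44 of skin, and the highest was the 0.44 of rod and cone phototransduction, against the -0.02 of all features.

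**Figure D2:**
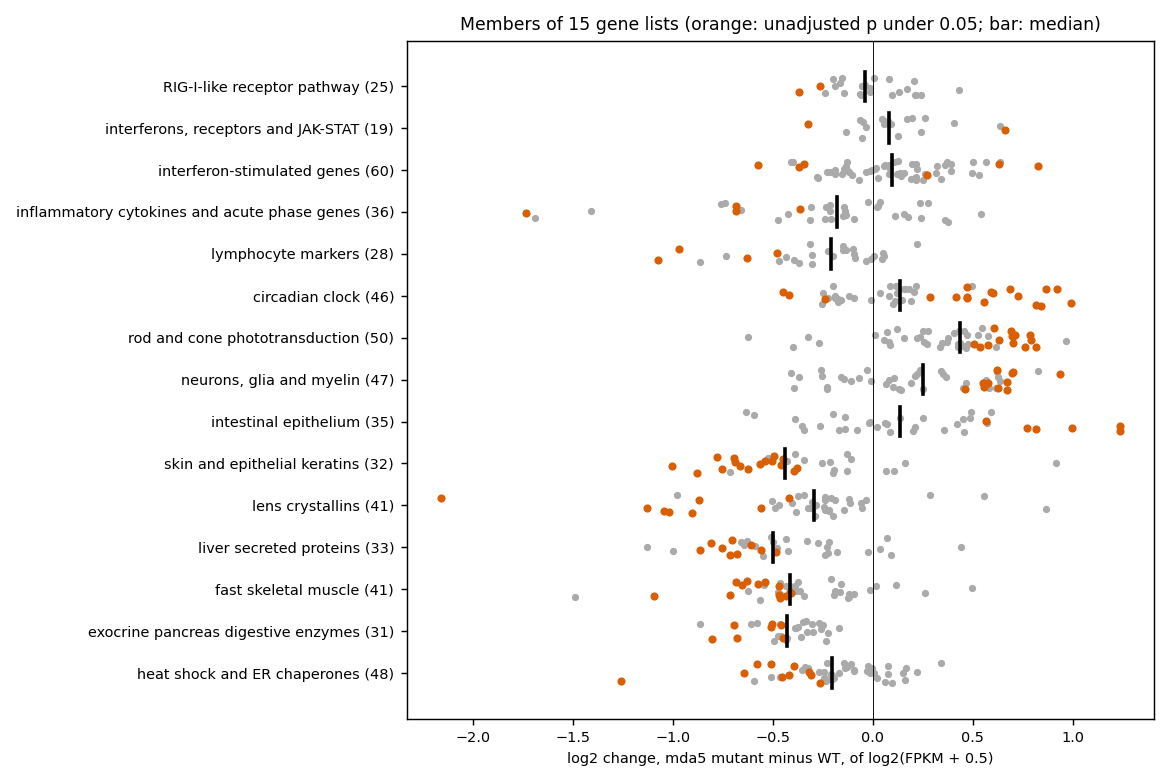
Log2 difference of mda5 mutants from WT for each tested member (points) of each gene list, with the list median (bar). The medians of liver secreted proteins (-0.50), skin (-0.44) and pancreas (-0.43) lie to the left and that of phototransduction (0.44) to the right, while the antiviral lists centre near 0.

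Genes of the circadian clock were among the features with the lowest p-values after ENSDARG00000082123. The clock is a feedback loop in which Clock and Bmal1 activate Per, Cry, Nr1d and Dbp genes, whose products repress or tune the loop, so that their transcripts cycle over the day. Of 46 tested members, 15 were higher in mda5 mutants at an unadjusted p under 0.05 and 3 were lower, and 15 lay wholly above WT against 5 wholly below. Without 1 library at a time, 13 to 16 members were higher and 1 to 3 lower. The median of the whole list was only 0.13, as other members hardly differed, and it was 0.21 under quantile normalization. The study text gives no time of day at which the pools were collected. Any part of collection time in the differences of clock genes was not tested.

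The Nr1d repressors showed the clearest separation. nr1d4b had 32.6, 27.7 and 27.5 FPKM in WT and 49.5, 49.1 and 47.3 FPKM in mda5 mutants (0.73 ± 0.11, adjusted p = 0.228). NR1D1, also known as Rev-erb alpha, had 87.5, 69.0 and 94.2 FPKM against 177, 159 and 123 FPKM (0.87 ± 0.15, adjusted p = 0.256). nr1d4a had 11.3, 14.3 and 10.2 FPKM against 23.8, 25.4 and 19.8 FPKM (0.92 ± 0.19, adjusted p = 0.256). No mutant library of these 3 genes reached down to the highest WT library.

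The transcription factor dbpb, a D-box activator driven by the clock, had 29.4, 28.0 and 32.2 FPKM in WT and 58.8, 61.2 and 43.4 FPKM in mutants (0.84 ± 0.13, adjusted p = 0.228). Its paralog dbpa had 6.91, 12.1 and 8.91 FPKM against 14.3, 15.1 and 12.7 FPKM (0.60 ± 0.19, adjusted p = 0.32). Under quantile normalization NR1D1 and dbpb reached an adjusted p of 0.0427 each. Adjusted p-values over the alternatives ran from 0.0427 to 0.565 for NR1D1 and from 0.0427 to 0.561 for dbpb.

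Period genes and another repressor were higher as well. One of 2 features named PER1 (ENSDARG00000012499) had 5.44, 4.96 and 4.53 FPKM against 10.0, 10.4 and 7.31 FPKM (0.82 ± 0.15, adjusted p = 0.256), and the other (ENSDARG00000056885) had 3.32, 2.67 and 3.04 FPKM against 9.89, 5.90 and 4.57 FPKM (0.99 ± 0.30, adjusted p = 0.32). PER3 had 3.16, 2.93 and 2.97 FPKM against 4.97, 4.68 and 3.62 FPKM (0.47 ± 0.13, adjusted p = 0.287). cipca, which binds and inhibits Clock, had 7.84, 8.69 and 8.16 FPKM against 16.2, 13.2 and 11.5 FPKM (0.69 ± 0.14, adjusted p = 0.256). Every one of these features was higher in all 3 mutant libraries. The activators were higher by smaller amounts, 0.47 ± 0.14 for one of the CLOCK features (ENSDARG00000011703) and 0.29 ± 0.09 for one of the BMAL1 features (ENSDARG00000035732), while the other copy of each overlapped with WT (0.08 ± 0.12 and -0.09 ± 0.09).

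The 3 members on the lower side were cry5, cry4 and USP2. cry5, a member of the cryptochrome and photolyase family, had 2.76, 3.70 and 3.37 FPKM in WT and 2.48, 2.27 and 2.03 FPKM in mda5 mutants (-0.45 ± 0.14, adjusted p = 0.32). cry4 differed by -0.24 ± 0.09 and USP2, a deubiquitinase under clock control, by -0.42 ± 0.18.

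For the 3 clock genes nr1d4b, dbpb and NR1D1, picked for their separation, WT was also the lowest of the 4 genotypes. nr1d4b stood at 58.1 to 60.2 FPKM in zbtb24 mutants and 43.2 to 55.9 FPKM in double mutants, dbpb at 62.3 to 68.1 and 57.9 to 66.5 FPKM, and NR1D1 at 161 to 182 and 148 to 167 FPKM. All 9 libraries other than WT lay above the 3 WT libraries for these 3 genes, which does not hold for the whole list, as cry5 shows. Between double and zbtb24 mutants, 0 clock members were higher and 4 lower at an unadjusted p under 0.05, with a median of -0.07.

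**Figure D3:**
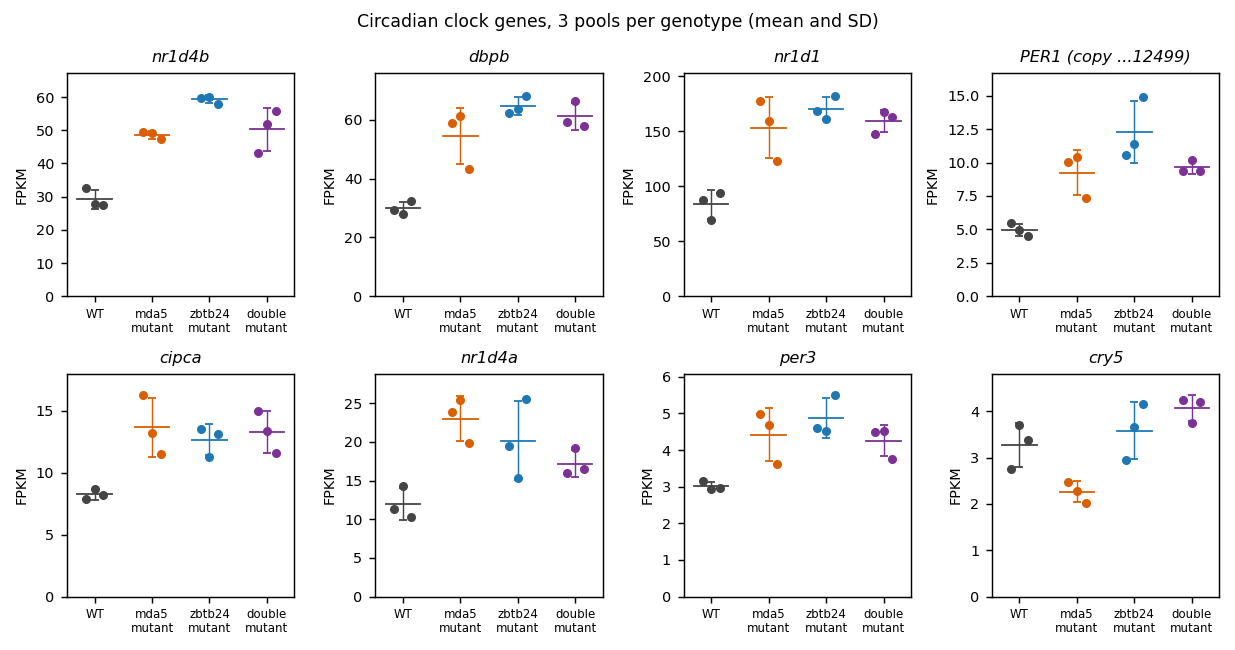
FPKM of 8 circadian clock genes in each pool of the 4 genotypes, with the mean (line) and SD (bars) of 3 pools. For nr1d4b, dbpb and NR1D1 the 3 WT pools are the lowest of all 12, with WT means of 29.3, 29.9 and 83.6 FPKM, whereas for cry5 the mda5 mutant pools are the lowest.

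Photoreceptor transcripts were higher in mda5 mutants. Of 50 tested genes of rod and cone phototransduction, 14 were higher and 0 lower at an unadjusted p under 0.05, 46 differed upward, and 26 lay wholly above WT. The mean of the list relative to WT was 0.23, 0.54 and 0.37 in the mutant libraries against -0.13, 0.12 and 0.01 in WT. The count of 14 depended on single libraries and was 2 without WT replicate 1, 6 without mda5 mutant replicate 2 and 9 without WT replicate 3. The median moved less, between 0.31 and 0.48.

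PDE6C, the cone phosphodiesterase, had 3.28, 3.78 and 3.86 FPKM in WT and 6.16, 6.23 and 6.15 FPKM in mda5 mutants (0.69 ± 0.23, adjusted p = 0.326). CRX, a transcription factor that photoreceptors need to mature, had 6.54, 10.9 and 8.65 FPKM against 13.2, 19.8 and 12.3 FPKM (0.76 ± 0.25, adjusted p = 0.326). In the rod pathway, saga, the arrestin that ends signaling, had 12.5, 18.4 and 18.1 FPKM against 25.2, 29.5 and 25.4 FPKM (0.71 ± 0.25, adjusted p = 0.332). GRK1, the rhodopsin kinase, had 3.07, 5.05 and 4.64 FPKM against 6.60, 7.08 and 7.66 FPKM (0.70 ± 0.25, adjusted p = 0.333). One of 3 features named RPE65 (ENSDARG00000007480), whose enzyme regenerates visual pigment, had 39.5, 33.6 and 43.5 FPKM against 67.9, 73.4 and 64.5 FPKM (0.82 ± 0.32, adjusted p = 0.347). The groups did not overlap in any of these 5 features, and cngb1a, a rod channel subunit, was at 0.79 ± 0.27.

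Genes of neurons, glia and myelin were higher by count, but the count rested on which WT pool was included. Of 47 tested members, 11 were higher and 0 lower, and only 3 lay wholly above WT. The count was 21 without WT replicate 2, 3 without WT replicate 3, 1 without mda5 mutant replicate 2 and 0 without WT replicate 1. In the list mean, WT replicate 2 stood at 0.39 while WT replicates 1 and 3 stood at -0.34 and -0.05 and the mutants at 0.20, 0.29 and 0.32. vamp2, a synaptic vesicle protein, had 18.7, 36.8 and 21.5 FPKM in WT and 32.8, 43.8 and 42.6 FPKM in mda5 mutants (0.67 ± 0.23, adjusted p = 0.331). ELAVL3, an RNA-binding protein of neurons, had 21.9, 40.1 and 19.2 FPKM against 37.1, 40.03 and 42.4 FPKM (0.62 ± 0.25, adjusted p = 0.348). In both genes the WT value of replicate 2 reached into the mutant range.

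Epidermal genes were lower in mda5 mutants. Of 32 genes of skin and epithelial keratins, 0 were higher and 16 lower at an unadjusted p under 0.05, and 16 lay wholly below WT. Without 1 library at a time the lower count was 8 to 14, with 8 when WT replicate 3 and 9 when mda5 mutant replicate 3 was left out. The median was -0.44, and -0.22 under quantile normalization. The list mean was -0.26, -0.34 and -0.55 in mutants against 0.02, -0.17 and 0.15 in WT.

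Among the members with low p-values were PKP1, cldni, TP63 and PPL. PKP1, a plakophilin of desmosomes, had 5.62, 7.24 and 7.65 FPKM in WT and 3.202, 4.12 and 3.14 FPKM in mda5 mutants (-0.88 ± 0.15, adjusted p = 0.256). PPL, a plakin that ties keratin to the cornified envelope in mammals, had 19.1, 26.9 and 27.6 FPKM against 18.4, 13.1 and 13.6 FPKM (-0.69 ± 0.23, adjusted p = 0.326). cldni, a claudin of tight junctions, had 109, 97.8 and 121 FPKM against 81.2, 82.9 and 73.4 FPKM (-0.46 ± 0.11, adjusted p = 0.284). The transcription factor TP63, needed to keep the basal epidermis, had 27.38, 41.0 and 39.0 FPKM against 25.01, 18.96 and 22.6 FPKM (-0.67 ± 0.20, adjusted p = 0.315). Each of the 4 was lower in every mutant library than in any WT library.

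Abundant members of the list did not all differ. icn, an S100-type calcium-binding protein of skin, had 3457, 2792 and 4033 FPKM in WT and 2311, 2059 and 2232 FPKM in mutants (-0.62 ± 0.20, adjusted p = 0.32). krt5, a keratin of the epidermis, differed by -0.50 ± 0.20 (adjusted p = 0.347), and the less abundant krt93 by -1.004 ± 0.34 (adjusted p = 0.326). anxa1b, an annexin, had 60.0, 46.1 and 64.8 FPKM against 37.8, 35.1 and 41.5 FPKM (-0.56 ± 0.17, adjusted p = 0.32). The keratin krt8 had 418, 329 and 463 FPKM against 394, 362 and 342 FPKM, with overlap (-0.13 ± 0.16, adjusted p = 0.711). krt17 (-0.13 ± 0.21) and the claudin cldne (0.07 ± 0.18) overlapped as well.

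The hemidesmosome genes itga6b and col17a1b were named by the rule of largest changes rather than by the list. Their distance from WT follows from that rule, so they do not stand for the whole structure. itga6b, the integrin alpha 6 that anchors basal cells to the basement membrane, had 54.8, 53.2 and 75.2 FPKM in WT and 14.7, 13.3 and 22.0 FPKM in mda5 mutants (-1.86 ± 0.33, adjusted p = 0.256). col17a1b, a transmembrane collagen of the same structure, had 15.9, 27.6 and 25.9 FPKM against 5.95, 6.65 and 12.8 FPKM (-1.44 ± 0.37, adjusted p = 0.284). In the pair of genotypes that lack Zbtb24, itga6b was higher with mk29, at 58.9, 49.0 and 21.5 FPKM against 17.0, 16.4 and 18.2 FPKM (1.18 ± 0.33, adjusted p = 0.324). The difference between the 2 pairs for itga6b was 3.04, with an adjusted p of 0.0943.

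Most crystallins of the lens had differences below 0 in mda5 mutants, with large changes for a few. Of 41 tested crystallins and lens genes, 0 were higher and 8 lower, and 9 lay wholly below WT. The median was -0.29 and ran from -0.55 without WT replicate 2 to -0.12 without WT replicate 1. Under quantile normalization it was only -0.08. crygm6, a gamma M crystallin, had 49.8, 125 and 104 FPKM in WT and 7.14, 7.55 and 43.7 FPKM in mutants (-2.64 ± 0.69, adjusted p = 0.284). crygm3 had 83.9, 136 and 184 FPKM against 16.6, 20.9 and 64.6 FPKM (-2.16 ± 0.51, adjusted p = 0.284). crygm7 had 154, 184 and 213 FPKM against 31.2, 48.3 and 107 FPKM (-1.73 ± 0.46, adjusted p = 0.287). In each of the 3 genes mda5 mutant replicate 3 was the mutant library nearest to WT. The beta crystallin CRYBA1 had 26.1, 26.0 and 36.3 FPKM against 12.5, 12.9 and 17.3 FPKM (-1.02 ± 0.35, adjusted p = 0.326), and CRYBB3 differed by -0.90 ± 0.26. The medians of the photoreceptor and lens lists, both from the eye, thus had opposite signs in the same libraries.

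Genes of the liver were lower in mda5 mutants. Of 33 tested genes for secreted liver proteins, 0 were higher and 9 lower, with 6 to 11 lower when 1 library was left out, and 16 lay wholly below WT. Their median was -0.50, and -0.27 under quantile normalization. SERPINC1, the clotting inhibitor antithrombin, had 91.2, 96.1 and 106 FPKM in WT and 62.5, 60.6 and 68.5 FPKM in mutants (-0.61 ± 0.15, adjusted p = 0.284). FGG, the gamma chain of fibrinogen, had 257, 343 and 424 FPKM against 178, 182 and 215 FPKM (-0.81 ± 0.20, adjusted p = 0.284). fabp10a had 1466, 2081 and 2295 FPKM against 1040.0, 903 and 1232 FPKM (-0.87 ± 0.26, adjusted p = 0.32). hp, the hemoglobin scavenger haptoglobin, had 2.31, 2.59 and 2.48 FPKM against 1.24, 0.978 and 1.83 FPKM (-0.70 ± 0.18, adjusted p = 0.284). None of these 4 genes overlapped between the groups.

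Skeletal muscle genes were lower as well, and exocrine pancreas genes had a median below 0, both with counts that depended on single libraries. Of 41 fast muscle genes, 0 were higher and 13 lower, 19 lay wholly below WT, and the median was -0.41, or -0.10 under quantile normalization. The lower count was 2 without WT replicate 3, 3 without mda5 mutant replicate 1, 7 without mda5 mutant replicate 2 and 8 without WT replicate 1. AMPD1, the AMP deaminase of muscle, had 265, 236 and 305 FPKM in WT and 148, 197 and 178 FPKM in mutants (-0.63 ± 0.15, adjusted p = 0.284). The creatine kinase ckma had 3427, 3151 and 4397 FPKM against 2504, 2717 and 2641 FPKM (-0.47 ± 0.15, adjusted p = 0.326), and its paralog ckmb also differed by -0.47 ± 0.15. Both creatine kinases were without overlap between the groups.

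All 31 tested digestive enzyme genes of the exocrine pancreas had differences below 0, between -0.86 and -0.17. Only 7 of them had an unadjusted p under 0.05 and 4 lay wholly below WT. Over all features 7.27% were lower at that threshold and 12.6% lay wholly below WT, so the 4 without overlap were near the share of all features. The count at an unadjusted p under 0.05 was 1 without WT replicate 1 or WT replicate 3. It was 3 without mda5 mutant replicate 3, and 11 without WT replicate 2 or mda5 mutant replicate 1. The list median of -0.43 became -0.19 without mda5 mutant replicate 3, which was the lowest library with a list mean of -0.82, while WT replicate 2 stood at -0.39. Under quantile normalization the median was -0.22. PLA2G1B, the pancreatic phospholipase, had 68.2, 42.3 and 64.9 FPKM against 24.6, 38.3 and 36.5 FPKM (-0.80 ± 0.22, adjusted p = 0.287). prss1, a trypsin, had 6587, 4209 and 5756 FPKM against 4356, 4338 and 3261 FPKM, with overlap (-0.46 ± 0.21, adjusted p = 0.368).

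Some chaperones of the endoplasmic reticulum, which secretory cells use to fold proteins, were lower. In the list of 48 heat shock and endoplasmic reticulum chaperones, 0 were higher and 10 lower, with 4 to 8 when 1 library was left out, and the median was -0.20. CRELD2, a protein of the unfolded protein response, had 3.15, 3.14 and 3.64 FPKM in WT and 1.94, 1.55 and 2.37 FPKM in mutants (-0.65 ± 0.16, adjusted p = 0.284). MANF, induced by the same response, had 9.94, 9.40 and 10.7 FPKM against 6.89, 5.97 and 6.74 FPKM (-0.58 ± 0.16, adjusted p = 0.298). PDIA6 and the master chaperone HSPA5 differed by -0.51 ± 0.15 and -0.46 ± 0.17. In these 4 genes the mutant libraries lay wholly below WT. CANX, CALR and PDIA3, chaperones counted in the antigen presentation list, overlapped with WT (0.06 ± 0.10, -0.03 ± 0.13 and -0.01 ± 0.15). One of 2 features named SERPINH1 (ENSDARG00000019949), a collagen chaperone, had 5.45, 7.86 and 8.56 FPKM against 2.29, 1.67 and 4.92 FPKM (-1.26 ± 0.36, adjusted p = 0.308), and the other (ENSDARG00000075954) differed by -0.24 ± 0.23.

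In the collagen and bone matrix list, by contrast, 2 of 38 members were lower by the test and 0 higher, although its median was -0.46. The mutant library means were -0.55, -0.58 and -0.10, and the standard errors of its members were wide, 0.52 for the POSTN feature ENSDARG00000043806 at -1.12. Heart muscle had 1 of 20 members lower and 0 higher, and the transcripts of the mitochondrial genome 0 of 13 in either direction. Without regard to the test, 12 of the 13 differed downward and 8 lay wholly below WT, against 12.6% of all features. Standard errors of the collagen and mitochondrial lists come from the fit of all 4 genotypes, so they include the spread among zbtb24 mutant pools. MT-CO3, at 12349, 11515 and 13473 FPKM against 10078, 11187 and 10209 FPKM (-0.245 ± 0.25), had 12159, 11326 and 5577 FPKM in zbtb24 mutants. The median of the mitochondrial list was -0.24, but it was 0.11 under quantile normalization, so its direction depended on the scaling.

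Some intestinal genes were higher. Of 35 members of the intestinal epithelium list, 6 were higher and 0 lower at an unadjusted p under 0.05, with 3 to 5 higher and 0 to 1 lower when 1 library was left out. The median was 0.14, and it ran from -0.01 without mda5 mutant replicate 3 to 0.24 without mda5 mutant replicate 2. One of 3 features named SLC6A19 (ENSDARG00000091560), a transporter of neutral amino acids, had 13.6, 6.94 and 6.27 FPKM in WT and 16.8, 26.5 and 19.4 FPKM in mutants (1.24 ± 0.34, adjusted p = 0.3). SLC5A1, the sodium-glucose transporter, had 13.1, 12.6 and 14.4 FPKM against 17.6, 41.8 and 16.6 FPKM (0.77 ± 0.29, adjusted p = 0.34). pdzk1, a scaffold of the brush border, had 43.1, 33.0 and 22.0 FPKM against 43.4, 50.6 and 47.0 FPKM (0.57 ± 0.24, adjusted p = 0.359). chia.6, a chitinase, and NPC1L1, which takes up cholesterol, were higher by the test with overlapping groups (0.82 ± 0.27 and 0.999 ± 0.40).

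Blood cell markers that differed by the test were lower. Over all features, 7.27% were lower at an unadjusted p under 0.05. The share of neutrophil and macrophage markers was near that, the erythrocyte share under it and the lymphocyte share above it. Of 40 neutrophil and macrophage markers, 0 were higher and 3 lower (apoeb, cd74b and ptprc), and of 28 lymphocyte markers 0 were higher and 4 lower, with medians of -0.15 and -0.21. The lower myeloid count was 7 without WT replicate 2, 4 without mda5 mutant replicate 3, 2 without WT replicate 3 and 1 without any other single library of the pair, and the lower lymphocyte count was 2 to 4. cd8a, the co-receptor of cytotoxic T cells, had 1.01, 1.58 and 1.86 FPKM in WT and 0.682, 0.187 and 0.473 FPKM in mda5 mutants (-1.08 ± 0.34, adjusted p = 0.321). cd8b, its partner chain, had 0.851, 1.34 and 1.41 FPKM against 0.487, 0.248 and 0.357 FPKM (-0.97 ± 0.28, adjusted p = 0.311). Neither chain overlapped between the groups. nkl.3, an NK-lysin, and one of 2 features named CCR9 (ENSDARG00000099738), a homing receptor of the thymus and gut, differed by -0.48 ± 0.21 and -0.63 ± 0.26. RAG1, the recombinase of developing lymphocytes, had 11.6, 12.4 and 11.3 FPKM against 10.2, 8.09 and 7.003 FPKM (-0.47 ± 0.30, adjusted p = 0.466). The neutrophil lysozyme lyz had 256, 142 and 339 FPKM against 168, 152 and 164 FPKM, with overlap (-0.52 ± 0.37). apoeb, an apolipoprotein that marks microglia but is also made elsewhere, was the marker with the smallest p among the myeloid genes, with 967, 787 and 1027 FPKM against 559, 693 and 607 FPKM (-0.58 ± 0.15, adjusted p = 0.284). Of 18 erythrocyte markers, 0 were higher and 1 lower, alas2, the first enzyme of heme synthesis in red cells (-0.71 ± 0.32, adjusted p = 0.368). Leaving out 1 library gave 0 to 3 higher, with 3 without mda5 mutant replicate 3, and 0 to 3 lower, with 3 without WT replicate 2 and 0 without WT replicate 1 or 3. The globin genes varied most between pools and differed in both directions. hbae3 was at 73.0, 13.9 and 35.3 FPKM in WT and 198, 169 and 9.26 FPKM in mutants (1.04 ± 0.99, adjusted p = 0.63). hbaa1 was at 321, 671 and 689 FPKM against 23.8, 37.3 and 443 FPKM, with overlap (-2.84 ± 1.53, adjusted p = 0.413). Of the other globins, hbae1.1 differed by 0.66 ± 0.64 and hbae5 by -0.16 ± 1.03. GATA3, a transcription factor of T cells that is also made in other tissues, lay wholly above WT, with 18.4, 20.9 and 19.2 FPKM against 26.7, 21.01 and 21.08 FPKM, but not past the test (0.22 ± 0.13, adjusted p = 0.44).

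Genes of glucose hormones and growth differed in both directions. In the list of glucose hormones, gluconeogenesis and the growth axis, 3 of 35 members were higher and 6 lower, with a median of -0.14. The hormone genes prl, POMC and ins were among the lower members. prl, which encodes prolactin, had 2.36, 0.969 and 1.51 FPKM in WT and 0.613, 0.569 and 0.428 FPKM in mutants (-0.98 ± 0.23, adjusted p = 0.284). POMC, the precursor of corticotropin and melanotropins, had 7.07, 2.74 and 5.91 FPKM against 1.98, 2.92 and 1.53 FPKM, with overlap (-1.06 ± 0.34, adjusted p = 0.325). ins, the insulin gene, had 81.8, 54.0 and 96.5 FPKM against 32.2, 53.1 and 36.8 FPKM (-0.91 ± 0.40, adjusted p = 0.361). One of 2 features named IGFBP2 (ENSDARG00000052470), a binding protein of insulin-like growth factors, was lower without overlap (-0.78 ± 0.25). On the higher side, one of 2 features named IRS2 (ENSDARG00000075282), an adaptor of the insulin receptor, had 14.1, 12.1 and 17.1 FPKM against 20.7, 22.2 and 20.03 FPKM (0.54 ± 0.17, adjusted p = 0.325). The other (ENSDARG00000037099) had the largest difference of the list, with 0.0888, 0.0294 and 0.0537 FPKM against 7.13, 0.120 and 6.44 FPKM (2.52 ± 1.03, adjusted p = 0.348). Its level in mda5 mutant replicate 2 lay near WT. PCK1, an enzyme of gluconeogenesis, was higher by the test with overlap (0.87 ± 0.38).

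In the p53 list, 1 of 32 members was higher and 3 lower. bbc3, the cell death effector Puma, had 5.73, 6.5004 and 8.10 FPKM in WT and 12.7, 12.3 and 8.94 FPKM in mutants (0.70 ± 0.20, adjusted p = 0.313), whereas PHLDA3, an inhibitor of Akt, had 9.88, 8.12 and 10.3 FPKM against 4.91, 6.23 and 6.41 FPKM (-0.65 ± 0.18, adjusted p = 0.299). Members of this list thus passed in both directions, in counts not far from the 6.3% higher and 7.27% lower of all features. Of 20 genes linked to ICF syndrome and DNA methylation, 0 were higher or lower at an unadjusted p under 0.05. DNA replication and mitosis had 2 of 50 lower, cholesterol synthesis 1 of 35 lower, immediate early factors 2 of 44 lower and pigment cells 1 of 32 higher, and each had 0 in the other direction. These counts depended on single libraries. Without mda5 mutant replicate 3, 6 immediate early genes and 3 pigment genes were higher, and without mda5 mutant replicate 1, 6 replication genes were lower. Of 12 tested germ line genes, 0 passed in either direction.

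By the rule for the largest changes, 385 features with a symbol had an unadjusted p under 0.01, no overlap between the groups and a mean of at least 5 FPKM in the higher group, of which 98 were higher and 287 lower. Among the 12 highest were some genes of the retina, beside genes of other kinds. CABP4, a calcium-binding protein of photoreceptor synapses, had 2.02, 2.30 and 4.46 FPKM in WT and 8.24, 8.94 and 6.21 FPKM in mutants (1.33 ± 0.28). One of 2 features named CPLX4 (ENSDARG00000059978), a complexin of the retina, had 5.23, 6.96 and 6.67 FPKM against 11.7, 16.3 and 11.6 FPKM (1.01 ± 0.25). lratb.2, of the family that esterifies retinol, was at 1.11 ± 0.33.

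Also among the 12 highest were casp3l, a caspase gene (1.42 ± 0.43), the unconventional myosin myo7bb (1.097 ± 0.33), the receptor phosphatase ptprh (1.05 ± 0.31), the NADPH oxidase nox1 (1.02 ± 0.30), CLRN3, of the clarin family (1.03 ± 0.26), the SLC6A19 feature given above, si:ch211-217k17.12 (1.14 ± 0.35) and si:ch211-14i3.2 (1.05 ± 0.24). casp3l, the highest, had 1.76, 1.24 and 2.46 FPKM in WT and 4.51, 7.77 and 4.84 FPKM in mutants. Beyond the crystallins, itga6b, col17a1b and SERPINH1, the 12 lowest held upk2, a uroplakin (6.79, 7.49 and 9.47 FPKM against 3.99, 1.95 and 2.41 FPKM, -1.39 ± 0.28), cbln10, of the cerebellin family (-1.37 ± 0.39), the sulfotransferase sult1st3 (-1.35 ± 0.34), si:dkey-27k4.4 (-1.39 ± 0.40) and si:dkey-248g15.3 (-1.16 ± 0.37). The remaining one was col28a2a, a collagen gene, with 5.51, 4.58 and 6.27 FPKM in WT and 0.736, 2.93 and 0.825 FPKM in mda5 mutants (-1.73 ± 0.45, adjusted p = 0.284).

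These features were then looked up in the second pair of genotypes, double mutants against zbtb24 mutants, which shares no library with the first. Both pairs were fitted together and share the variance estimate of each feature. Their p-values are therefore not independent, and counts by p in the second pair are not a separate test. Of the 12 highest, 8 were also higher there, and of the 12 lowest, 1 was also lower. That gene was col28a2a, with 6.49, 5.55 and 1.75 FPKM in zbtb24 mutants and 0.462, 0.687 and 0.728 FPKM in double mutants (-2.03 ± 0.45, adjusted p = 0.317). Of the whole pool of 385, 57 differed in the same direction in the second pair, 6 of them with an unadjusted p under 0.05, and 128 differed in the opposite direction with an unadjusted p under 0.05.

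**Figure D4:**
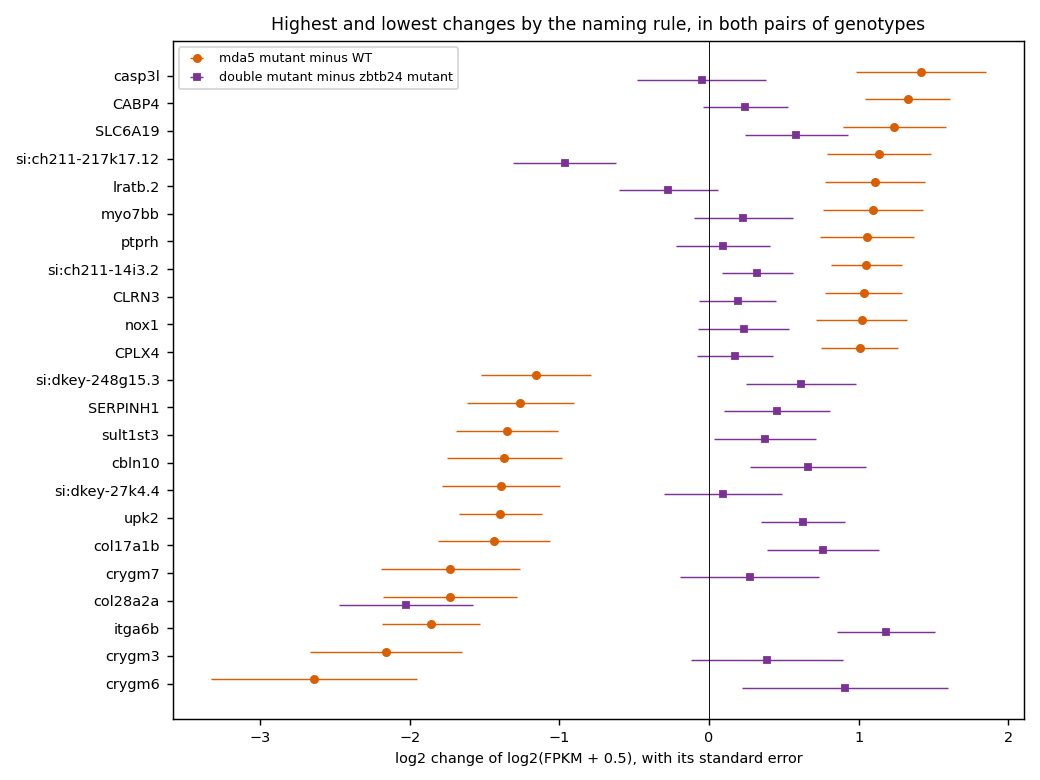
Log2 difference with its standard error for the 12 highest genes by the naming rule except 1 that is not shown and for the 12 lowest, for mda5 mutants against WT (circles) and double mutants against zbtb24 mutants (squares). The circles were chosen for their size, and of the 12 lowest genes only col28a2a, at -1.73 and -2.03, lies below 0 in both pairs.

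Over all 21623 features, 25 were higher and 17 lower in both pairs at an unadjusted p under 0.05, and 795 differed in opposite directions. In the second pair 1674 features were higher (7.74%) and 1435 lower (6.64%) at that threshold, and 1 was called, the same ENSDARG00000082123. Double mutant libraries lay wholly above zbtb24 mutant libraries for 2527 features (11.7%) and wholly below for 2093 (9.68%). The difference between the 2 pairs, tested as an interaction in limma, gave 0 features at an adjusted p under 0.05 (0.0%), 5434 at an unadjusted p under 0.05 (25.1%) and a smallest adjusted p of 0.0943. Without WT replicate 2 the count at an adjusted p under 0.05 was 2161, whereas without any other single library it was at most 3.

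Lists also differed between the pairs. Interferon-stimulated genes had a median of 0.10 in the first pair and -0.47 in the second, where 30 of 60 members were lower and 1 higher at an unadjusted p under 0.05. IRF7, for example, was at 22.3, 36.3 and 34.4 FPKM in zbtb24 mutants and 15.4, 11.7 and 8.79 FPKM in double mutants, against 5.91 to 8.80 FPKM in the 6 libraries with Zbtb24. Its test of the difference between the pairs gave -1.33 with an adjusted p of 0.101. Several tissue lists with medians below 0 in the first pair had medians above 0 in the second, with values of 0.52 for liver, 0.40 for fast muscle, 0.30 for skin and 0.83 for collagen. Zbtb24 mutant replicate 3 stood apart in these lists, at a list mean of -1.16 for liver, -1.14 for muscle and -2.36 for collagen against -0.27 to -0.62 in replicates 1 and 2, and its part in the second pair was not tested for the lists. Phototransduction and intestine had medians above 0 in both pairs (0.44 and 0.23, 0.14 and 0.58), and lens crystallins had medians below 0 in both (-0.29 and -0.45).

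**Figure D5:**
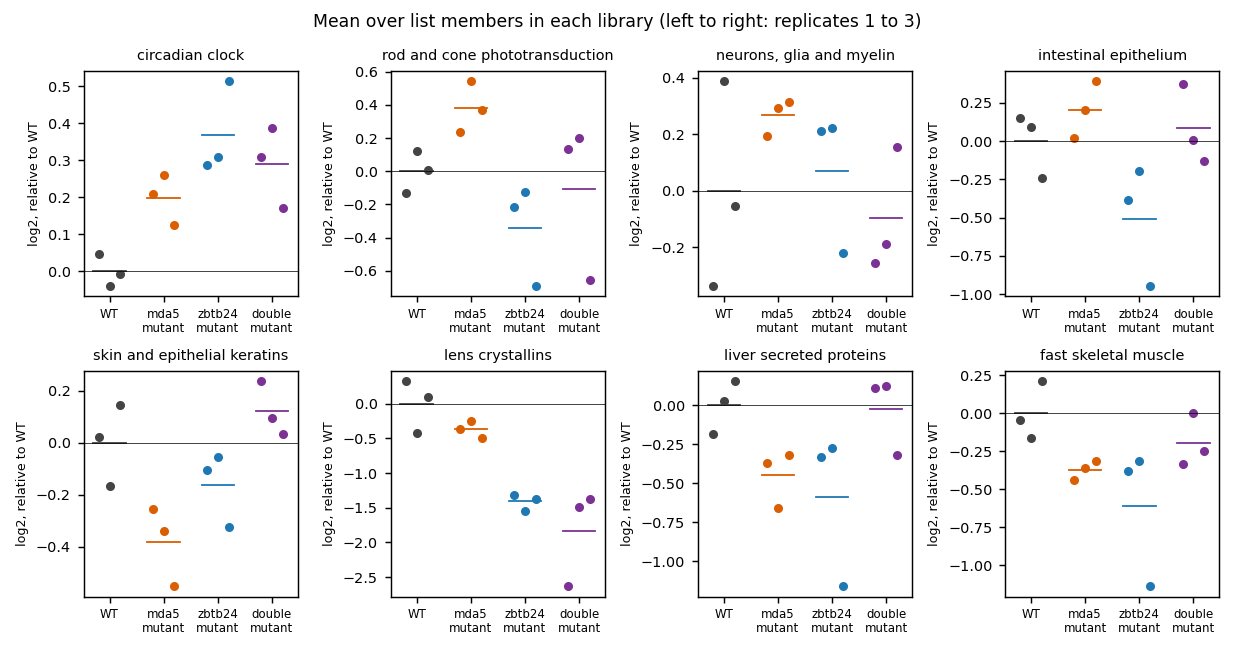
Mean over the members of 8 gene lists in each library, on the log2 scale relative to the WT mean, with the group mean (line). In the first pair, clock and phototransduction means are higher in all 3 mda5 mutant pools (0.12 to 0.26 and 0.23 to 0.54) and skin, liver and muscle means are lower, while WT replicate 2 stands apart for neurons (0.39) and lens (-0.42).

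A few features separated all 6 libraries with mk29 from all 6 without it. There were 26 such features among the 21623 tested, 19 higher and 7 lower, and they include ifih1 and ENSDARG00000082123. How many would separate in this way by chance was not tested. Of the 26, only ENSDARG00000082123 was called in either pair. TTC21B, a component of the retrograde transport in cilia, had 1.71, 1.65 and 1.76 FPKM in WT, 2.77, 2.46 and 2.64 FPKM in mda5 mutants, 1.88, 1.84 and 2.18 FPKM in zbtb24 mutants and 2.48, 2.60 and 2.82 FPKM in double mutants. Its differences were 0.50 ± 0.09 (adjusted p = 0.256) and 0.35 ± 0.09 (adjusted p = 0.324). STX6, a syntaxin of endosomes and Golgi, had 12.997, 10.6 and 10.2 FPKM in WT and 15.8, 15.6 and 14.5 FPKM in mda5 mutants, with 11.5 to 13.3 and 14.8 to 17.2 FPKM in the second pair. METTL5, which methylates ribosomal RNA, was lower with mk29 in both pairs, with 8.68, 7.07 and 11.3 FPKM against 5.15, 5.84 and 5.07 FPKM in the first and 6.4998 to 8.59 FPKM against 4.93 to 5.79 FPKM in the second. cyp3a65, a cytochrome P450 of the gut and liver, was at 56.9 to 101 FPKM in WT and 131 to 162 FPKM in mda5 mutants, and at 54.7 to 121 and 148 to 162 FPKM in the second pair (0.81 ± 0.29 and 0.80 ± 0.29). These genes were chosen after their values were seen.

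TTC21B lies near ifih1. Among the 25 annotated genes on each side of ifih1 in the RefSeq gene order, 16 matched 1 feature and 12 were tested, of which 1 was higher at an unadjusted p under 0.05 (TTC21B, 17 genes away), 0 were lower and 0 were called. The closest tested neighbour was fap, a cell surface protease 2 genes away, with 15.3, 12.9 and 14.3 FPKM in WT and 12.5, 10.3 and 11.96 FPKM in mda5 mutants, wholly below WT (-0.28 ± 0.23, adjusted p = 0.568).

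Listing at 0 was rare. Besides ENSDARG00000082123, SNORD97, a small nucleolar RNA, had 3.68, 1.70 and 1.73 FPKM in WT and was listed at 0 in each mda5 mutant library. It was also listed at 0 in zbtb24 mutant replicates 1 and 2 and had 3.203 FPKM in double mutant replicate 2, so it did not follow mk29. In the other direction, si:ch211-160d14.9 and ENSDARG00000105256 were listed at 0 in all 3 WT libraries and at 1.33 to 2.14 and 1028 to 9092 FPKM in mda5 mutants. Both were also listed at 0 in zbtb24 mutant replicate 1 and in a double mutant library, so these values did not follow the genotype.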

How the data were processed

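Total RNA from 12 pools of larvae was poly(A)-selected and sequenced as stranded paired-end libraries. The deposited values are FPKM per gene. The authors trimmed reads with Trimmomatic 0.33, aligned them to GRCz10 with TopHat 2.1.1 and computed FPKM with Cuffquant and Cuffnorm of Cufflinks 2.2.1. Counts and the depth of each library are therefore unknown, and scaling between libraries is that of the authors. Symbols came from an Ensembl ID table, which matched 26418 of 32271 features. Of the tested features, 20008 had a symbol and 3016 of these shared it with another feature, in which case reads may be split between copies and the paralog is uncertain.

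Features that averaged 0.5 FPKM or more were fitted as log2(FPKM + 0.5) in limma 3.58.1 (R 4.3.3), with a mean for each of 4 genotypes, a variance trend and 8 residual degrees of freedom. p-values are two-sided and measure only the spread between pools. Named were ifih1, features with an adjusted p under 0.05, the 12 highest and 12 lowest changes among symbols with an unadjusted p under 0.01, no overlap and at least 5 FPKM in the higher group, up to 4 members per list with the smallest p and members that define a pathway, and the 4 most abundant features. Further list members and the features that separate all libraries with mk29 were named after their values were seen. Some named features are not reported here. Members and gene lists were chosen with earlier results of these data known. Neighbours of ifih1 follow the gene order of RefSeq GRCz12tu, another build, so no coordinates are given. Alternatives were pseudocounts of 0.1 and 1, other minima, other scalings, no trend, only the 6 libraries, a replicate block and leaving out each library. Code was tested on simulated data. Figures used Python 3.11.15 with pandas 2.3.3, numpy 2.4.6 and matplotlib 3.10.9.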

Additional observations from a re-analysis of the deposited data

How the results depend on the processing

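ENSDARG00000082123 was called under every alternative run. The number of features called in mda5 mutants against WT was 3 with only the 6 compared libraries in the fit (adding ENSDARG00000105256, adjusted p 0.0253, and si:ch211-160d14.9, adjusted p 0.0483), 3 under quantile normalization (adding NR1D1 and dbpb) and 1 to 3 when 1 library was left out. Features at an unadjusted p under 0.05 then ranged from 575 to 2546 on the higher side, with 575 without WT replicate 3 and 2546 without WT replicate 2, and from 735 to 2008 on the lower side. For the difference between the pairs, leaving out 1 library gave 0 to 2161 features at an adjusted p under 0.05 and 3781 to 6299 at an unadjusted p under 0.05; leaving out libraries of the second pair was chosen after seeing the data. The difference of ifih1 ranged from -0.46 to -0.27 when 1 library was left out and was -0.59 with the pseudocount of 0.1 and -0.25 with that of 1.

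Replicate numbers are shared between the groups, but the labels give them no meaning, and deviations of same-numbered libraries correlated at 0.167, 0.083 and -0.027 across features, so the numbers were not taken to pair the pools. With the replicate number as a block 1 feature was called, 1370 were higher and 1329 lower at an unadjusted p under 0.05, and the difference between the pairs gave 0 and 5099.

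For the 146 named features, 2167 values under alternatives held 2 reversals, MT-ND1 (0.10) and MT-ATP6 (0.13), both under quantile normalization. The median of the mitochondrial list became 0.11 there, and medians near 0 changed sign when 1 library was left out for 8 lists: interferons, receptors and JAK-STAT (-0.0016 to 0.12), RIG-I-like receptors (-0.10 to 0.05), MHC class I (-0.02 to 0.12), other sensors (-0.10 to 0.02), intestine (-0.01 to 0.24), p53 (-0.11 to 0.03), cholesterol (-0.07 to 0.06) and pigment cells (-0.05 to 0.03). The cause was not tested. FPKM values without counts set no limit of detection, and 3 pools per genotype limit what could be called.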
